A study of Homo sapiens with 10 samples.

Results

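Wide m6A windows are the stretches of transcript at which antibody enrichment for N6-methyladenosine (m6A) was deposited over at least 250 bases. Here they are the windows of both m6A-seq lists that start at position 200 or later and before position 4000 of the transcript and span 250 bases or more. The rule took 2325 of 24494 deposited windows in m6A-seq replicate 1 and 2603 of 24855 in replicate 2, or 4928 of 49349 in all. A further 37075 windows start in the same range and are narrower. Rows whose gene name a spreadsheet had turned into a date were left out, which left 2319 and 2595 wide windows, 11.1% and 12.3% of the windows in the range. The rule used position and width only. The deposited enrichment ratio, replicate support and the values of the host genes were not part of it. Width is not independent of antibody signal, however, since the lowest signal listed rises with width, as given below.

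The windows come from HCT116 cells, an established human colorectal cancer line, and the m6A libraries are labelled as control cells. The other samples served to describe the host genes. Ribosome profiling, which sequences the mRNA fragments that ribosomes protect, had 1 control library with a hairpin against GFP and 2 libraries with YTHDF1 knocked down by shY1, and mRNA-seq had the same numbers. RNA bound to YTHDF1 was sequenced once after immunoprecipitation with a YTHDF1 antibody (RIP) and once from whole-cell lysate as input, both in control cells. The labels give each sample a 3 min exposure to 100 ug/ml cycloheximide, which stalls ribosomes on mRNA. The titles number the knockdown libraries shY1-1 and shY1-2, and the labels do not say whether these are different hairpins or whether samples came from separate cultures. P-values therefore measure the spread between these libraries, which may be technical. In the expression table the epithelial markers EPCAM, KRT8, KRT18, KRT19, CDH1 and CDX2 were listed, while VIL1, CDX1 and CLDN7 have no value there. Control mRNA was 142 for EPCAM, 1529 for KRT8, 636 for KRT18 and 1590 for KRT19. It was lower for CDH1 (20.1) and for CDX2 (3.07). Of the fibroblast markers COL1A1, FN1 and VIM had mRNA values of at most 5.01, and COL1A2, COL3A1 and DCN have none. Of the blood cell markers CD68 alone was listed, with mRNA of 19.9 but footprints of 15090 in the control. YTHDF1, the knockdown target, had mRNA of 27.4 in the control library and 8.62 and 7.81 after knockdown (log2 change -1.62 ± 0.40 SE, limma adjusted p = 1.00, unadjusted p = 0.00549).

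m6A is the most abundant internal modification of mRNA. A methyltransferase complex built on METTL3 and METTL14 places it on adenosines within a short consensus, mostly near stop codons, in 3′ ends and in long internal exons, and several sites often lie close together. In m6A-seq, RNA is fragmented and precipitated with an antibody to m6A, so a window is as wide as the overlapping fragments that were enriched, and a wide window can hold 1 site or several. YTHDF proteins read the mark in the cytoplasm, and YTHDF1 is known for binding methylated mRNAs and for its links to translation. In the intestine it has been studied with Wnt signalling, which maintains stem cells.

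Each deposited window carries a 5-base motif and its position, and these letters are the sequence the lists hold for a call. They are shown for the wide windows with high or low enrichment and for the widest ones, written 5′ to 3′ with the AC core, whose A is the candidate methylated base, in capitals. Where the lists named different motifs, replicate 1 comes first. The same letters stood at different positions in the lists for USP6NL (1481 and 2047), YAP1 (929 and 971) and the RBSN pair (2659 and 2112).
PABPN1: ggACt
DYNLL1: ggACt
CCNT1: agACa, then ggACa
HSPA1B: ggACa
MLK4: ggACt
GNA13: gaACa
BLOC1S1: aaACa
EIF4A2: aaACt
ANKLE2: agACt, then agACc
ADGRE5: gaACt
USP6NL: aaACt
SERTAD2: gaACt, then agACc
YAP1: agACa
RBSN: agACa
ASXL2: agACa
WBP11: aaACc
The PABPN1, DYNLL1 and MLK4 windows thus share ggACt, while the high-enrichment window of GNA13 carries gaACa. For BLOC1S1, also with high enrichment, the named aaACa is at position 554, just past its windows, which end at 550 in both lists. EPPK1, also among the highest, had gaACt in both lists, the motif of the low-enrichment ADGRE5 window. The low-enrichment windows of EIF4A2 and ANKLE2 carry aaACt, and agACt or agACc. Positions count along a transcript that the lists do not name, so a window could not be assigned to an exon, a coding sequence or an untranslated region, and longer sequence was not used here.

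All 12 combinations of the motif occurred among wide windows. The most frequent was ggACa, in 11.3% of wide windows in replicate 1 and 11.4% in replicate 2, against 11.5% and 10.8% of narrow windows. Motifs that begin with gg made up 30.8% and 30.5% of wide windows and 30.6% and 29.2% of narrow ones. Those that begin with aa made up 18.8% and 19.96% of wide windows against 20.6% and 22.2% of narrow ones. Motif use therefore differed little between the width classes. The motif lay inside the window for 96.3% and 96.0% of wide windows and for 79.3% and 79.0% of narrow windows, and a wider window has more room for it.

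Wide windows were nearly always present in the other replicate. A window counted as supported when a window of the same gene in the other list covered at least 50% of the shorter of the pair. By this measure 2220 of 2319 wide windows of replicate 1 (95.7%) and 2450 of 2595 of replicate 2 (94.4%) were supported, against 72.4% and 70.0% of narrow windows. Wide windows had the higher share in both lists. No test was made, since each share is computed from both lists together. When the partner had to be wide as well, 70.9% and 63.0% were supported. A criterion that ignores width and was added after the data were seen, a summit within 50 bases of a summit of the same gene in the other list, was met by 75.3% of wide windows in each list and by 65.0% and 63.7% of narrow windows.

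**Figure D1:**
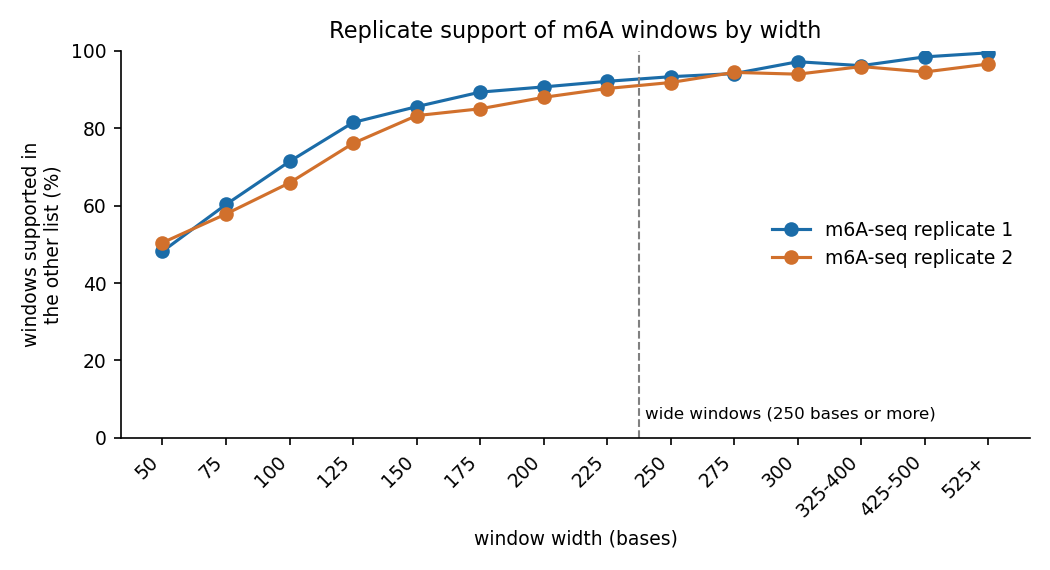
Share of m6A windows (y axis, percent) supported by a window of the same gene in the other replicate, by window width in bases (x axis), for windows starting between 200 and 4000; the dashed line marks the 250-base limit. Support climbs from 48.2% and 50.4% at 50 bases to 99.5% and 96.6% at 525 bases or more, with no step at the limit.

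Support rose with width without a step at the 250-base limit. Windows of 225 bases, just below it, were supported in 92.1% and 90.2% of cases, and windows of exactly 250 bases in 93.3% and 91.8%. At 50 bases the shares were 48.2% and 50.4%, and at 525 bases or more they were 99.5% and 96.6%. Within 4 groups of equal size by start position, wide windows were supported in 94.9% to 97.1% of cases in replicate 1 and 93.1% to 95.3% in replicate 2, and narrow windows in 69.9% to 74.9% and 68.2% to 71.2%. The gap was also present within groups by input signal. In the highest of 4 input groups 95.6% of 2033 wide windows of replicate 1 were supported against 81.2% of narrow ones, and in replicate 2 93.9% of 2265 against 75.2%. Wide windows of that group still had the higher median input (450.5 against 275, and 462 against 291). The groups thus do not match the classes on input.

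Only 99 wide windows of replicate 1 and 145 of replicate 2 had no counterpart. Their genes were absent from the other list in 12 and 26 cases, so most lay in genes that had windows elsewhere. The median POI, the deposited ratio of immunoprecipitate (IP) signal to input signal, was 3.73 and 3.79 for unsupported wide windows and 6.88 in both lists for supported ones. Since 3 is the lowest ratio deposited, the unsupported windows sat close to that limit. TCF7L2, a transcription factor at the end of the Wnt pathway, gives an example: its wide windows at 1050 to 1300 and 1925 to 2250 in replicate 1 had POI values of 3.17 and 3.51 and no counterpart. An unsupported window could also be strong. ZC3H13, a subunit of the methyltransferase complex, had one at 2175 to 2700 in replicate 2 alone, with a POI of 11.5.

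Where lists disagreed, it was more often about boundaries than about presence. Of the supported wide windows, 576 in replicate 1 and 815 in replicate 2 had no wide partner. The partner was a narrow window in 566 and 804 of these, with a median width of 175 bases in both lists, and in 252 and 285 cases it was 200 or 225 bases, 1 or 2 steps of 25 bases short of the limit. Other wide windows were broken up in the other list. In replicate 1, 277 wide windows (11.9%) faced 2 or more separate windows in replicate 2, and in the reverse direction it was 412 (15.9%), with at most 4 pieces. RBSN, whose product rabenosyn-5 acts in endosome fusion, shows the pattern. Replicate 2 had a single window from 1850 to 3125 (1275 bases), and replicate 1 had neighbours from 1825 to 2350 and from 2375 to 3050.

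A property of the lists limits what their agreement means. Of all windows, 5960 had the same start and stop in both lists, and in every one the input value was identical to within 1e-06, while the IP value was identical in 3. The same held for all 553 wide windows with equal bounds. The input was thus shared, and replicate support is support by the IP libraries against a common input.

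Both the IP and the input signal of a window rose with its width. The median IP signal was 2665 and 2757 in the deposited units for wide windows, 4.55 and 4.45 times that of narrow windows. The median input was 412 and 429, or 4.10 and 4.03 times. The lowest IP value listed was 150 for windows of 50 bases in replicate 1 and 873 for windows of 250 bases, so a wide window could not be called with a low IP value. Per base the contrast was smaller. Wide windows had median IP signals of 8.26 and 8.33 per base against 5.29 and 5.36 for narrow windows, and input signals of 1.29 and 1.33 per base against 0.979 and 0.997.

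The POI, a ratio of both signals over the same bases, differed less. Its median was 6.76 (quartiles 4.74 and 10.2) for wide windows of replicate 1 and 6.66 (4.62 and 10.3) for those of replicate 2, against 5.44 and 5.35 for narrow windows, 1.24 times in both lists. The quartile ranges overlapped broadly, and 26.1% and 26.2% of wide windows had a POI of 10 or more against 18.8% and 18.3% of narrow windows. The classes could not be matched on input, because the lowest IP value listed rises with width and so fixes a high POI for any wide window with low input. Of 4 groups by input signal, the highest held most wide windows, and its median POI was 6.27 against 4.47 in replicate 1 and 6.09 against 4.49 in replicate 2. Even there the wide windows had the higher input (450.5 against 275, and 462 against 291). Across the wide windows of a list, width was related to IP signal with a Spearman rho of 0.58 and 0.55, and to POI with 0.09 and 0.08, over 2319 and 2595 windows that share a library and often a gene. The input signal of a window had almost no relation to the mRNA value of its host (rho of -0.02 in both lists, over 12999 and 13107 windows in the range).

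**Figure D2:**
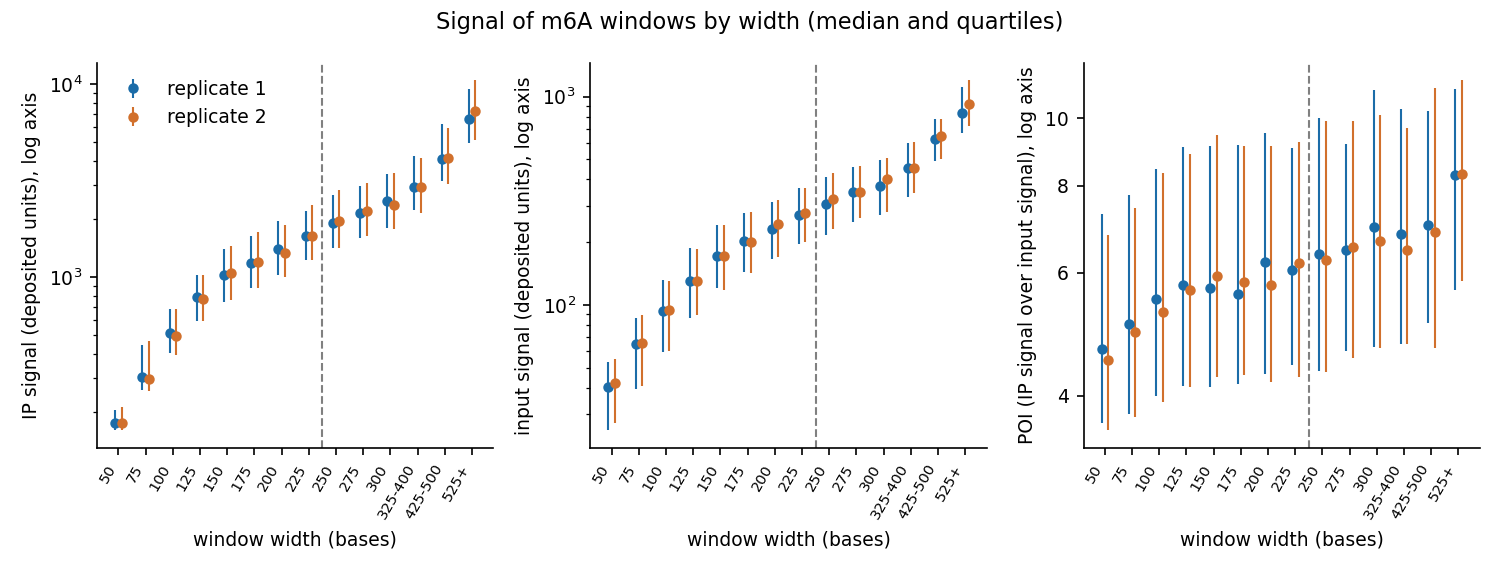
Median (points) and quartiles (bars) of IP signal, input signal and POI by window width, in both m6A-seq replicates, on log axes; the dashed line marks 250 bases. IP and input climb together along the width axis, while the median POI moves from 4.66 and 4.50 at 50 bases to 8.30 and 8.33 at 525 bases or more.

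The calls that were wide in both lists can be compared directly. There were 1653 such pairs in 1440 genes. The bounds were identical in 553 pairs (33.5%), the summits lay a median of 5 bases apart with an upper quartile of 44, and the named motif was the same in 1105 (66.8%). Replicate 2 had the wider window in 595 pairs and replicate 1 in 454, and 604 had equal widths. POI values of a pair were within 1.5-fold of each other in 1325 pairs (80.2%), with a Spearman rho of 0.81 across pairs. Both lists use the same input, and how much of this likeness comes from it was not tested. In the 553 pairs with identical bounds, where only the IP signal can differ, its rho was 0.88 and the median ratio of replicate 2 to replicate 1 was 1.03. The windows of such a pair also have equal widths, and IP signal rose with width.

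Among these pairs, with input at or above the list median, the highest POI in the lower of both lists belonged to PABPN1, the nuclear poly(A)-binding protein (chromosome 14, 23321457 to 23326163 in GRCh38). Its only window, 250 to 625 in both lists, had POI values of 45.3 and 45.1, with IP signals of 16201 and 16123 over an input of 358. The replicates were nearly equal for PABPN1. They were not for DYNLL1, a light chain of the dynein motor (chromosome 12, 120469842 to 120498493), where the same bounds of 325 to 650 gave POI values of 43.8 and 92.1. CCNT1, the cyclin of the kinase that releases paused RNA polymerase II, had a 700-base window from 1675 to 2375 in both lists with POI values of 37.9 and 41.6, but the summits were at 2282 and 1730. A shared wide window can therefore have its strongest point in different places.

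HSPA1B, an inducible HSP70 chaperone, had POI values of 37.4 and 90.4. It has a near-identical copy, HSPA1A, so its reads may be divided between them and the value is uncertain. EPPK1, which encodes the cytoskeletal linker epiplakin, reached 36.1 and 35.0. MLK4 (current symbol MAP3K21, a mixed-lineage kinase) reached 35.0 and 38.8, GNA13 (a G protein alpha subunit) 34.9 and 37.9, and BLOC1S1 (a subunit of a complex for lysosome-related organelles) 33.3 and 40.5. At the other end, EIF4A2, an RNA helicase of translation initiation, had 3.00 and 3.14 in a window with the same bounds in both lists. ANKLE2, which acts in nuclear envelope reassembly, had 3.00 and 3.27, and ADGRE5, an adhesion receptor, 5.19 and 3.00. Each of these pairs had its lower value at 3.00, the limit of the deposited ratios.

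**Figure D3:**
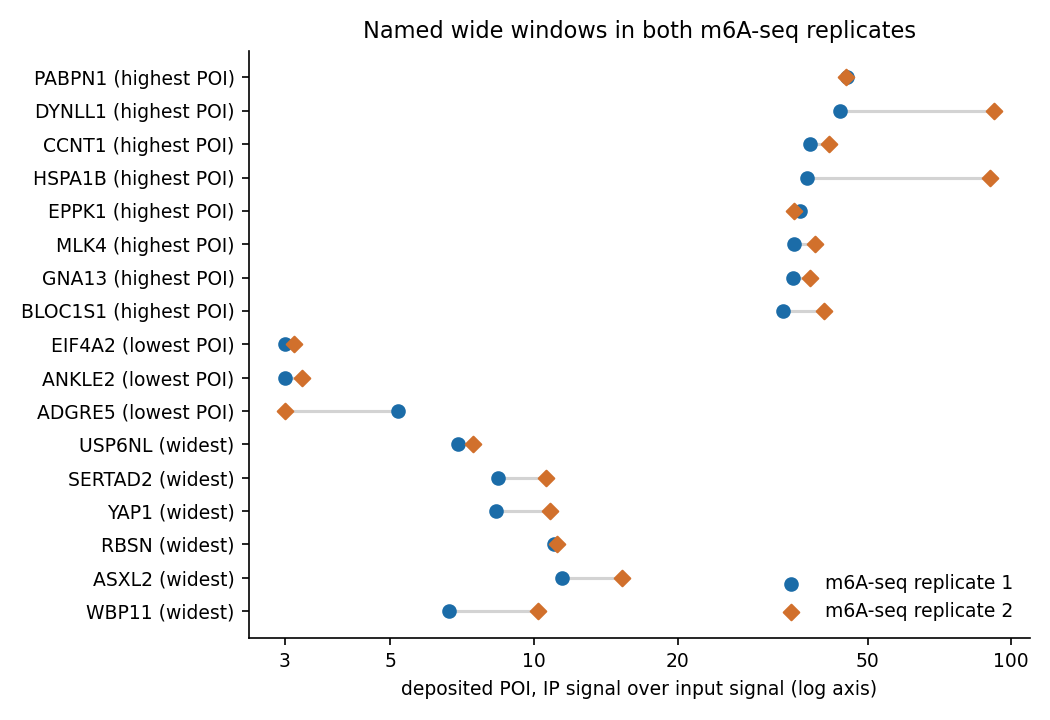
Deposited POI (x axis, log scale) of the named pairs of wide windows in m6A-seq replicate 1 (circles) and replicate 2 (diamonds); a grey line joins the replicates of a gene. DYNLL1 (43.8 and 92.1) and HSPA1B (37.4 and 90.4) differ most between replicates, while PABPN1 has 45.3 and 45.1 and the widest windows lie between 6.64 and 15.3.

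The widest shared windows were not the most enriched. USP6NL, which encodes an activator of RAB5 GTP hydrolysis, had windows of 1150 and 1200 bases with POI values of 6.94 and 7.46. SERTAD2, a transcriptional coregulator, had 1125 bases in each list (300 to 1425 and 200 to 1325) with 8.40 and 10.6. YAP1, the transcriptional coactivator of the Hippo pathway (chromosome 11, 102110447 to 102233424), had 975 and 1025 bases with 8.30 and 10.8. Its motif was agACa in both lists but at different positions, 929 and 971. ASXL2, a Polycomb-associated chromatin regulator, had 975 and 950 bases with 11.5 and 15.3 and a motif at position 3321 in both lists. WBP11, a splicing-related protein, had 1025 and 875 bases with 6.64 and 10.2. In each of these the POI lay between 6.64 and 15.3, near or above the median of wide windows.

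Most host genes had 1 wide window, but some carried several. In replicate 1, 311 genes had 2 or more, and in replicate 2, 360. AFF1, a scaffold of the super elongation complex, had 4 in each list. The pair at 3875 to 4125 had POI values of 3.05 and 3.45, and the others ranged from 7.11 to 15.1. DUSP6, a phosphatase that inactivates ERK (chromosome 12, 89347235 to 89352501), also had 4 in each list. Its windows ran from 1050 to 2775 with POI values of 9.95, 24.0, 17.9 and 7.17 in replicate 1 and 7.96, 31.0, 15.5 and 6.81 in replicate 2, so their order was the same in both. VANGL1, a planar cell polarity protein, and MKL2 (MRTFB, a coactivator of serum response factor) had 4 in each list. The MKL2 window at about 2900 to 3250 had POI values of 63.3 and 24.1 over inputs of only 60.4 and 72.9. TMEM127, an endosomal membrane protein, had 5 and 3.

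The hosts of wide windows numbered 2655 genes, 1957 in replicate 1 and 2179 in replicate 2, with 1481 in both lists. Genes with windows in the range but none of 250 bases or more at any position numbered 6341 and are called narrow-only hosts. RefSeq (GRCh38.p14) held 2647 of the wide hosts, 2640 of them protein-coding. Wide hosts had a median of 4 windows per gene and narrow-only hosts 2. Their control mRNA values were alike, with medians of 12.7 and 12.6 among hosts in the expression table (1680 and 3711).

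Of the 9214 genes with a window in the range, 28.8% were wide hosts, and the gene lists spread around that figure. The m6A writers, erasers and readers had 13 wide hosts among 17 genes with a window (76.5%), and these genes had a median of 4 windows. RBM15B and ZC3H13, subunits of the writer complex, METTL16, a separate m6A methyltransferase, and the readers YTHDF2, EIF3A and ELAVL1 had wide windows that matched in both lists, and RBM15, CBLL1, KIAA1429, YTHDF1, YTHDF3, YTHDC1 and IGF2BP3 had them in 1 list or without a wide match. YTHDF2 had pairs near 1025 to 1375 and 1625 to 1975 with POI values of 6.91 and 7.02, and of 7.26 and 6.60. YTHDF1 itself had 1 wide window, 400 to 650 in replicate 1, with a POI of 9.79 and a narrower partner in replicate 2. Chromatin modifiers had 19 of 37 (51.4%), among genes with a median of 7 windows. Ribosomal protein genes, which are short, had 3 of 24 (12.5%) and a median of 1 window. RPLP0 (400 to 875) and RPS14 (400 to 650) had equal bounds in both lists, with POI values of 8.70 and 6.31 and of 7.78 and 7.07.

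Genes of the Wnt pathway had 10 wide hosts among 41 (24.4%) and a median of 3 windows, and Wnt targets had 7 of 19 (36.8%) and a median of 5. The receptor FZD7 had windows of 275 and 250 bases with POI values of 8.76 and 9.33. ZNRF3 and RNF43, membrane ubiquitin ligases that remove Frizzled receptors, had pairs with the same bounds, at 1350 to 1675 for ZNRF3 (POI 10.5 and 15.4) and 3625 to 4000 for RNF43 (6.61 and 7.63). The coactivators CREBBP and EP300 had 8.74 and 10.02, and 3.24 and 3.77, and the corepressor CTBP1 had 4.65 and 4.69. The coreceptor LRP6, the scaffold DVL2 and the ubiquitin ligase subunit BTRC had wide windows in replicate 2 only. Of the targets, SOX9, a stem cell transcription factor, had 4 wide windows in replicate 1 and 2 in replicate 2, with POI values between 5.87 and 11.5, and the others were ETS2, TIAM1, JAG1, YAP1, RNF43 and ZNRF3. The differences between lists were not tested. From ribosomal proteins over the Wnt pathway and Wnt targets to chromatin modifiers, the share rose with the median number of windows. The m6A genes stood apart, with a higher share than the chromatin modifiers but fewer windows. Whether the number of windows accounts for the shares was not tested.

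A larger share of wide hosts than of narrow-only hosts was listed in the YTHDF1 RIP table. That table holds genes with an FPKM ratio of RIP to input of at least 1.5 and input of at least 1, from 1 library each, so presence in it has no replicate check. Of the 2655 wide hosts, 1314 (49.5%) were listed, against 2169 of 6341 narrow-only hosts (34.2%) and 38.3% of all genes with an m6A window. Among hosts with a wide pair it was 50.8%. The share also rose with the number of wide windows in 1 list, from 47.5% of genes with 1, to 56.3% with 2 and 72.6% of the 62 genes with 3 to 5.

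The number of windows of any width moved with both. When genes were split by it, after the data had been seen, the difference largely went. With 1 to 2 windows 28.5% of wide and 23.4% of narrow-only hosts were listed, with 3 to 4 windows 44.6% and 43.4%, with 5 to 7 windows 64.1% and 64.3%, and with 8 to 24 windows 81.5% and 80.0%. Split in the same way by control mRNA value, 61.8% of wide and 36.6% of narrow-only hosts were listed in the lowest of 4 groups, and 28.6% and 27.8% in the highest, so the gap closed as the mRNA value rose.

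**Figure D4:**
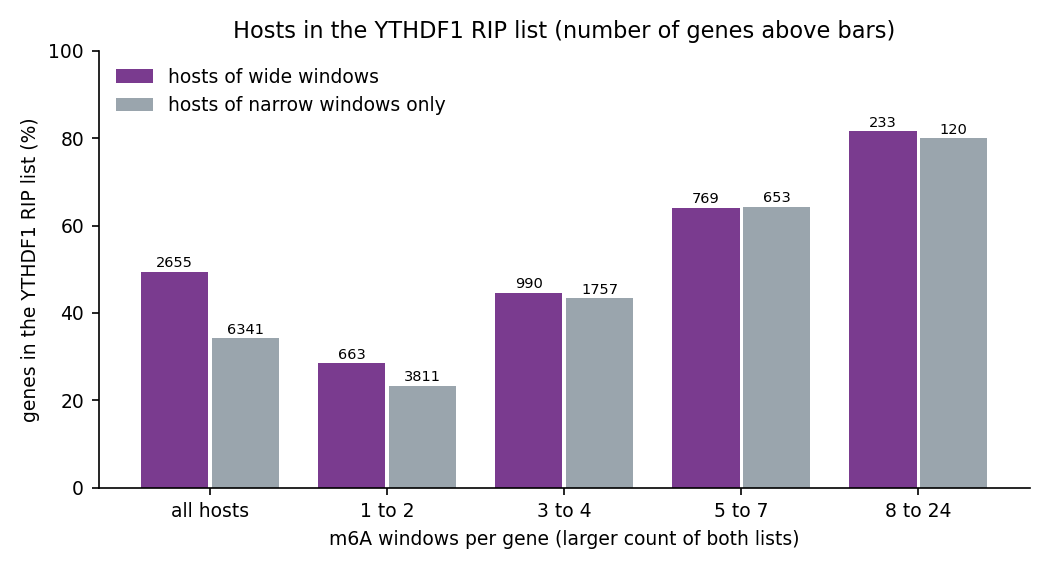
Share of genes listed in the YTHDF1 RIP table (y axis, percent) among hosts of wide windows and hosts of narrow windows only, for all hosts and by the number of m6A windows per gene; numbers above bars are genes. The bars differ for all hosts (49.5% and 34.2%) and lie close together in the groups with 3 or more windows, such as 64.1% and 64.3% with 5 to 7.

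Among listed genes the RIP ratio itself differed little, with a median of 2.36 for wide hosts and 2.23 for narrow-only hosts, and its order turned in some groups. By windows per gene the medians were 2.06 and 2.05 with 1 to 2 windows, 2.23 and 2.26 with 3 to 4, 2.37 and 2.54 with 5 to 7, and 3.37 and 3.18 with 8 to 24. By RIP input they were 2.91 and 2.51 in the lowest of 4 groups, 2.43 and 2.32 in the next, 2.14 and 2.20 in the third and 2.11 and 2.01 in the highest. With RIP input at or above the median, the highest ratios of hosts with a wide pair were those of TNRC18, a chromatin protein (89.0 FPKM over 10.4, ratio 8.56), IRS1, the insulin receptor substrate (6.49), KDM3B, a histone H3 lysine demethylase (6.12), GOLGA3, a Golgi protein (6.005), and FLNA, the actin crosslinker filamin A (5.82). IRS1 had 11 and 12 windows, 3 and 2 of them wide, with POI values between 5.53 and 8.50. The lowest were BTBD6 (1.51), HOMER3 (1.51) and EHD4 (1.51), just inside the limit of the list. EHD4, which acts in endocytic recycling, had a 700-base and an 875-base window with POI values of 12.1 and 13.5. Its other pair, of 325 and 400 bases, had POI values of 4.40 and 4.60. Of the named hosts at the low end of the RIP ratios, EHD4 thus had a pair above the upper quartile of POI. Its other pair lay below the lower quartile.

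Translation after YTHDF1 knockdown was compared on the log2(value + 1) scale with limma over 6782 genes, of which 1670 were wide hosts and 3670 narrow-only hosts. Footprints had a median change of -0.31 in wide hosts (quartiles -0.66 and 0.07) and -0.28 in narrow-only hosts (-0.66 and 0.11), and -0.28 over all tested genes, so hosts are read against that common shift. Each knockdown library gave a small gap in the same direction, with medians of -0.22 and -0.38 for wide hosts and -0.19 and -0.34 for narrow-only hosts. mRNA had medians of 0.00 and -0.02. Translational efficiency, the footprint change minus the mRNA change, had -0.29 and -0.26, with -0.27 over all genes. These differences between host classes are far smaller than the quartile range of genes within each class.

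Gene by gene, wide hosts were called at about the background rate in total and for fewer footprints, and less often for more footprints. At an adjusted p under 0.05, limma called 1 wide host with fewer footprints (0.0599% of those tested, against 0.0295% of all genes) and none with more (0% of all genes). At an unadjusted p under 0.05, 137 wide hosts (8.20%) and 325 narrow-only hosts (8.86%) differed in footprints, against 8.85% of all genes. Of the 137, 120 had fewer footprints (7.19%, against 6.99% of all genes) and 17 had more (1.02%, against 1.86%). Of narrow-only hosts 6.68% had fewer and 2.18% more. For translational efficiency limma called none after adjustment (0% of all genes), and 39 wide hosts (2.34%) and 97 narrow-only hosts (2.64%) at an unadjusted p under 0.05, against 2.73%. These were 33 lower (1.98%, against 2.14%) and 6 higher (0.359%, against 0.59%). For mRNA limma called none after adjustment (0% of all genes) and 7 wide hosts unadjusted (0.419%, against 0.472%), of which 4 were lower (0.240%, against 0.295%) and 3 higher (0.180%, against 0.177%). The adjusted footprint count of 1 became 2 without footprint knockdown library 1 and 8 without footprint knockdown library 2. Each of these fits has 1 footprint library per group, which is assumed to vary as the mRNA knockdown libraries do.

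Translation in the control cells differed more between RIP-listed and unlisted hosts than between width classes. The control efficiency, log2(footprints + 1) minus log2(mRNA + 1), had a median of 1.06 in wide hosts and 1.01 in narrow-only hosts. Among wide hosts it was 0.69 for the 845 listed in the RIP table and 1.37 for the 825 not listed. Among narrow-only hosts it was 0.64 and 1.27. The footprint change after knockdown was -0.32 in listed and -0.30 in unlisted wide hosts, and -0.32 and -0.27 in narrow-only hosts.

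The single wide host past the threshold was GATAD2B, a subunit of the NuRD chromatin complex, which was chosen for naming after its values were seen. Its footprints were at 858 in the control library against 38.2 and 33.1 after knockdown, and its mRNA at 9.39 against 12.3 and 8.53. Both knockdown footprint values lay below the single control value, as they did for 51.2% of all tested genes. In mRNA the control value lay between the knockdown values. The change was -4.56 ± 0.39 (SE, log2; limma adjusted p = 0.0460). The call ended with median centring of the libraries (adjusted p = 0.0643), quantile normalisation (0.0536), a pseudocount of 0.5 (0.0514) and no filter on low values (0.0515). It had 2 wide windows in replicate 2 (1050 to 1325, POI 7.37, and 1425 to 1775, POI 3.93), each with a narrower partner in replicate 1, and a RIP ratio of 1.73.

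Among hosts with a wide pair, none passed the adjusted threshold in footprints (0.0295% of all genes did), and 62 of 922 (6.72%, against 8.85% of all genes) had an unadjusted p under 0.05. The smallest p-values on the lower side belonged to WARS (tryptophanyl-tRNA synthetase), with footprint values of 609 in the control and 132 and 111 in the knockdowns, a change of -2.32 ± 0.35 (SE; limma adjusted p = 0.344). Its mRNA was 70.7, 54.0 and 76.5. For KDM6B, a histone H3K27 demethylase, the footprint values were 37.8, 3.32 and 4.99 and the mRNA values 8.08, 4.87 and 5.58 (footprint change -2.93 ± 0.48, limma adjusted p = 0.363, or 0.0377 without footprint knockdown library 2, where the spread comes from the mRNA libraries). In footprints both knockdown values lay below the control for these genes, as the rule for naming them required, while WARS mRNA in knockdown 2 lay above it. ANKLE2 had footprints of 18.6, 2.53 and 3.74, GNPTAB, which tags lysosomal enzymes, 40.3, 7.99 and 10.2, and ZNF778, a zinc finger protein, 107, 38.6 and 25.2. ZNF778 mRNA went the other way, from 4.66 to 12.3 and 9.79, which gave an efficiency change of -2.82 ± 0.63 (SE; limma adjusted p = 0.996).

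On the higher side, PCSK7, a proprotein convertase, had footprints of 16.1 in the control and 61.9 and 39.7 in the knockdowns (1.57 ± 0.44 SE, limma adjusted p = 0.552). SIAH2, a ubiquitin ligase, had 4.15, 12.2 and 27.4, and PAFAH2, a lipid hydrolase, 6.68, 20.4 and 25.2. DUSP5, a nuclear ERK phosphatase and relative of DUSP6, had 13.2, 91.5 and 39.8, with mRNA of 22.9985, 68.9 and 30.1. TMEM127, with 5 wide windows in m6A-seq replicate 1 and 3 in replicate 2, had 6.62, 25.8 and 15.5 with flat mRNA (31.1, 30.8 and 32.4). None of these passed the adjusted threshold. The POI values of their wide windows ran from 4.43 for a PAFAH2 window to 17.5 in both lists for SIAH2, whose windows spanned 600 and 650 bases with the same motif gaACc.

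**Figure D5:**
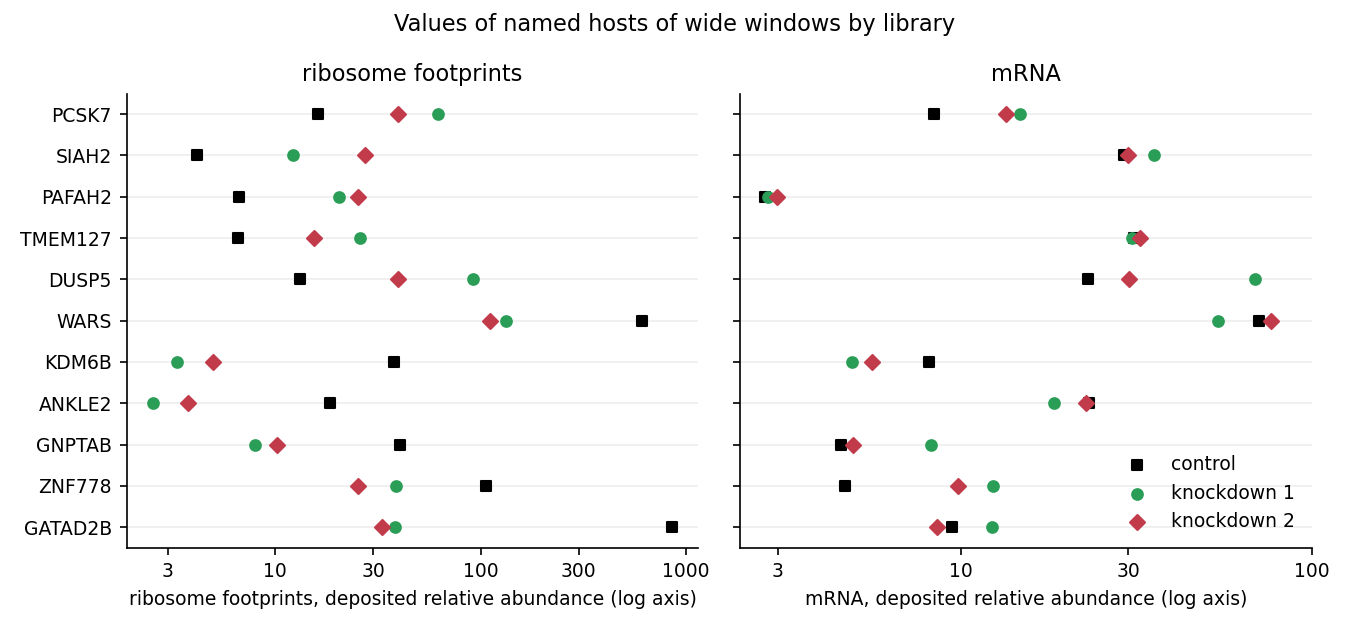
Deposited values of the named hosts of wide windows in the control (squares), knockdown 1 (circles) and knockdown 2 (diamonds) libraries, for ribosome footprints (left) and mRNA (right), on log axes. In footprints the control lies outside the knockdown pair for every gene shown, which the rule for naming required of all but GATAD2B. Of all tested genes, 51.2% were lower and 17.5% higher in both knockdown libraries. In mRNA the control lies between the knockdown values for TMEM127, WARS and GATAD2B.

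For efficiency alone, the named hosts on the higher side were TANGO6, with footprints of 6.52, 22.4 and 10.9 over mRNA of 7.33, 2.70 and 4.27, and TSC22D2, with 5.82, 11.6 and 17.5 over 8.40, 4.62 and 5.34. On the lower side HTT, the huntingtin gene, had footprints of 12.5, 3.66 and 4.43 over mRNA of 8.46, 17.3 and 17.1. In mRNA, KDM3A (5.80, 16.8 and 18.2) and UBXN7 (2.31, 5.79 and 5.57) were higher in both knockdown libraries, and METAP2 (43.3, 26.1 and 24.0), PPP1R14B (189, 116 and 108) and C12orf75 (158, 101 and 80.3) were lower. The groups did not overlap for any of these 5 genes, which the rule for naming them required (of all tested genes, 29.9% were lower and 30.9% higher in both), and none passed the adjusted threshold, with limma adjusted p of 1.00 for each. Footprints followed the mRNA for METAP2 (420, 372 and 289) and PPP1R14B (97.1, 78.7 and 64.4) but not for C12orf75 (274, 279 and 362).

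Over all tested genes, footprints were lower in both knockdown libraries for 51.2% and higher in both for 17.5%, and the hosts with the strongest or broadest m6A windows are read against these shares. DYNLL1 had footprints of 646, 329 and 377, CCNT1 82.1, 72.1 and 48.5, and GNA13 47.7, 14.1 and 32.4, all lower in both knockdown libraries. The other named hosts with the highest POI (PABPN1, HSPA1B, EPPK1, MLK4 and BLOC1S1) have no footprint values under these names. Of the hosts of the widest windows, WBP11 (154, 93.9 and 103), RBSN (20.1, 13.1 and 9.92), YAP1 (57.7, 57.2 and 35.0) and SERTAD2 (44.2, 34.5 and 14.8) were lower in both and USP6NL (12.5, 16.4 and 13.3) was higher in both. ASXL2 had 8.23, 11.3 and 7.41. AFF1, with 4 wide windows in each list, had 43.5, 20.6 and 16.0, while DUSP6, with as many, had 117, 171 and 80.7. Among Wnt genes with wide windows, DVL2 had 9.82, 45.1 and 31.5, TCF7L2 229, 42.2 and 143, EP300 14.3, 22.5 and 24.8, and LRP6 17.6, 10.4 and 10.3. None of these hosts passed the adjusted threshold in limma.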

How the data were processed

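Each row of the m6A lists gives, per the file headers, a window, its summit, a motif, signals in IP and input and their ratio (POI). The headers name the signals POM_IP and POM_INPUT without defining them or their unit. Whether these signals can be compared between genes is therefore unknown. Windows were called per replicate by the authors with a caller not given in the sources used here. STAR and GRCh38 are named in the submitters' processing notes. The RIP table holds FPKM values and their ratio as the authors deposited them. The footprint and mRNA signal of a gene is used as deposited, in a relative unit that no header states, and read depth is unknown throughout.

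Windows were classed, matched by gene and overlap (50% of the shorter) and summarised in Python 3.11.15 (pandas 2.3.3). Rows with names damaged by a spreadsheet were left out. Footprint and mRNA values were analysed as log2(value + 1) with limma 3.58.1 (trend, R 4.3.3) for the 6782 genes whose mean reached 1, in 1 fit of all 6 libraries, with 2 residual degrees of freedom, 2-sided, Benjamini-Hochberg adjusted. Each control, having no replicate, is taken to vary as the knockdowns do. The script was tested on simulated data. Hosts are described by counts and medians. Genes were named by rule: the highest and lowest POI, the widest pairs, the most wide windows, the RIP extremes, the smallest p on each side, and list members. The members and lists were chosen with earlier results of these data known.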

Additional observations from a re-analysis of the deposited data

How the results depend on the processing

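Wide windows had the higher support in each setting that applies to both classes. Their mean support over both lists, 95.07%, became 82.16% when the overlap had to reach 50% of the longer window, 66.95% when the partner had to be wide (no narrow counterpart), 92.97% and 96.31% with wide set from 200 or 300 bases, 87.77% with a POI of at least 5 in both windows and 75.3% by summits. For narrow windows 71.25% became 64.29% for the longer window, 69.21% with wide from 200 bases, 66.07% with a POI of at least 5 and 64.35% by summits. The ratios of medians, wide over narrow, stayed above 1. For POI 1.244 became 1.202 (from 200 bases), 1.283 (from 300 bases), 1.23 (no limit on the start) and 1.419 (input at or above the list median). For IP signal 4.502 became 3.772, 5.282 and 2.855 with wide from 200, from 300 and at high input, and for input 4.062 became 3.508, 4.674 and 2.264, and 4.161 with no limit on the start. The excess of wide hosts in the RIP table, 15.29 percentage points, was 5.293 with RIP input at or above the list median and 12.37 with a RIP ratio of at least 2, and leaving out either m6A replicate gave 12.83 to 13.23. The difference of median RIP ratios, 0.1243, was 0.1273 for hosts with a wide pair, 0.1765 and 0.07263 with wide from 200 and 300 bases, 0.04442 at high RIP input, 0.06057 at ratios of at least 2, and 0.09777 to 0.09972 without an m6A replicate.

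The difference of median footprint changes, -0.03001, was -0.004958 for hosts with a wide pair and -0.05239 with wide from 300 bases, and ranged from -0.03527 to -0.005179 when 1 replicate was left out. That of mRNA, 0.0214, ranged from 0.002236 to 0.02783, and that of efficiency, -0.03542, from -0.06086 to -0.02645, with -0.01364 for wide from 200 bases. Footprint calls among wide hosts numbered 0 with median centring, quantile normalisation, a pseudocount of 0.5, no filter on low values or only hosts with a wide pair, and 0 to 8 when 1 replicate was left out, where the lone library of a group is assumed to vary as the others do. Footprint and mRNA libraries carry the same shY1 numbers, and the labels do not say whether a number marks 1 hairpin or 1 culture, so they were not paired in the results above. The difference between the knockdown libraries correlated at 0.37 across genes between assays. With a replicate block for that number, 8 footprint calls and 1 efficiency call were made among wide hosts, with WARS (limma adjusted p = 0.0107), DUSP5 (0.0230) and KDM6B (0.0384) among them. The cause of these shifts was not tested. No other result changed direction under these alternatives than the RIP listing and ratio within some groups by windows per gene or RIP input, as given above. Read depth is unknown, each control and the RIP rest on 1 library, and both m6A lists share an input, so only the spread of IP and knockdown libraries is measured.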
